A study of Mus musculus with 38 samples.

Results

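The comparison described here asks whether a foot shock during training alters the transcriptional difference between recently active and neighboring inactive granule cells of the dentate gyrus. In every mouse, RNA was sequenced from 10 dVenus+ cells and from 10 dVenus- cells, and the change from dVenus- to dVenus+ was taken within the mouse. The change of the 12 fear conditioned mice (FC) was then set against the change of the 7 mice that received no shock, which were 4 mice trained without shocks (NS) and 3 mice kept in the home cage (HC). All 38 libraries of the series enter this comparison, 24 from FC, 8 from NS and 6 from HC mice. All animals were adult male Arc::dVenus mice on a C57BL/6J background, aged 8 to 12 weeks and housed singly, which carry a destabilized fluorescent protein under the control of the Arc promoter, so that a cell is dVenus+ by the activity of that promoter. FC mice received 3 pairings of a tone with a foot shock, NS mice went through the same procedure without the shock, and the cells of the trained mice were aspirated 24 h after training. HC mice were never placed in the chamber, so that against them shock cannot be told apart from exposure to chamber and tone. A library is a pool of 10 cells of 1 mouse, so that fewer cells with a transcript and less of it per cell cannot be told apart. Codes in the sample identifiers, whose meaning the labels do not give, separate the arms: FC mice carry 3 codes (2, 4 and 6 mice), the sizes of the 3 FC experiments in the methods of the study, and all 7 unshocked mice carry a further code. Levels in FC mice and in unshocked mice are therefore given but not compared, since code and shock cannot be told apart there, and each test of shock below is of a difference between changes that were measured inside a mouse. A dVenus change that differs by code cannot be told apart from an effect of shock either.

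Granule cells are the principal neurons of the dentate gyrus, and only a sparse set of them is active in any one context. Arc is an immediate early gene: synaptic activity induces its transcription within minutes, and its product regulates the trafficking of AMPA receptors. Signals from calcium and cAMP reach many such genes through CREB, a transcription factor that binds the cAMP response element in promoters. Contextual fear conditioning requires the hippocampus, and its consolidation requires new transcription in the hours after training.

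The libraries held between 1352288 and 18394761 reads on genes and between 7037 and 13286 detected genes. Between 16.4% and 59.7% of the uniquely aligned reads of a library lay outside genes, and the TMM factors that scale the libraries ran from 0.300 to 1.84. In 19 of 19 mice the level of Arc itself was higher in the dVenus+ library, which checks the dVenus label but not mouse or training. The dVenus- libraries of FC mice 06, 07 and 14 nevertheless held 1276, 1095 and 2549 Arc reads, whereas the other 9 dVenus- libraries of FC mice held at most 16. In 10 NS and HC libraries the description names another library than the title and the sample identifier, which match each other and were used. If the descriptions were right instead, the within-mouse changes of NS and HC mice could differ from those given here.

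The dVenus change differed between FC and unshocked mice in 2 of 12147 genes, Lpin1 and Dusp22, which is 0.0165% of those tested (edgeR quasi-likelihood test of the interaction of dVenus and shock with the mouse as block, Benjamini-Hochberg adjusted p under 0.05). In both genes the transcript was lower in dVenus+ than in dVenus- cells of FC mice and higher in dVenus+ cells of unshocked mice. Lpin1 encodes a phosphatidate phosphatase of lipid synthesis that also acts as a transcriptional coactivator, and Dusp22 encodes a dual-specificity phosphatase of the JNK pathway. The exact permutation test of the 19 mice between the arms can be run in 50388 ways and reaches a p of 1.98e-05 at the lowest. For genes chosen by their p in the fit it uses the same mice again, so that it gives no independent support. Both calls were lost with the older quasi-likelihood method of edgeR (adjusted p = 0.199 for Lpin1 and 0.433 for Dusp22) and without FC mice 06, 07 and 14 (0.123 and 0.145), and limma on the within-mouse changes called Lpin1 alone (0.0460 and 0.0716).

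Lpin1 (chr12:16535669-16653903, GRCm38) had between 0 and 127 reads in the dVenus+ libraries of FC mice (median 0) and between 0 and 1318 in their dVenus- libraries (median 199.5). In unshocked mice the dVenus+ libraries held between 0 and 534 reads (median 42) and the dVenus- libraries between 0 and 2 (median 1). The transcript was thus lower in dVenus+ cells in 11 of 12 FC mice and higher in 5 of 7 unshocked mice, and the FC mouse and both HC mice that remain had no read in either library. The within-mouse change in log2 CPM ran from -7.55 to 0 in FC mice (median -5.16) and from 0 to 9.16 in unshocked mice (median 5.02), so that the arms met only at 0. The fitted log2 fold changes were -4.69 in FC mice (adjusted p = 0.0108) and 8.05 in unshocked mice (adjusted p = 0.0332), and their difference was -12.74 ± 2.10 (SE, 95% CI -17.05 to -8.43, adjusted p = 0.0174). Summed over the 7 unshocked mice, 1025 reads in dVenus+ stood against 6 in dVenus- libraries, a ratio of 211 per read on genes (95% exact interval 96.7 to 577, counting error only), so that the size of the fitted difference rests on few reads. The exact permutation test of the within-mouse changes gave p = 5.95e-05 (unadjusted). For the FC mice of each code (2, 4 and 6 mice), set against the same 7 unshocked mice, the difference was -18.2, -14.0 and -11.5, but none passed the threshold by itself (edgeR adjusted p = 0.860, 0.953 and 0.394). Leaving out NS mouse 18 or 19 raised the adjusted p of Lpin1 to 0.0605 and 0.0527.

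Dusp22 (chr13:30660059-30711232) had between 0 and 21 reads in the dVenus+ libraries of FC mice (median 1) and between 0 and 1295 in their dVenus- libraries (median 91.5). Unshocked mice had between 4 and 167 reads in dVenus+ libraries (median 75) and between 0 and 8 in dVenus- libraries (median 4). The change was higher than 0 in 7 of 7 unshocked mice and lower than 0 in 9 of 12 FC mice, and the arms overlapped in 2 FC mice with few reads. The within-mouse change in log2 CPM ran from -8.90 to 1.84 in FC mice (median -3.61) and from 1.42 to 6.01 in unshocked mice (median 3.64). The fitted change was -4.88 in FC (adjusted p = 0.0115) and 4.69 in unshocked mice (adjusted p = 0.0574), a difference of -9.57 ± 1.68 (SE, 95% CI -12.99 to -6.14, adjusted p = 0.0174), and the exact permutation test gave p = 0.000278. For the FC mice of each code against the same 7 unshocked mice the difference was -15.1, -8.52 and -9.60, and none passed by itself (edgeR adjusted p = 0.860, 0.953 and 0.394). The adjusted p of Dusp22 passed 0.05 without any 1 of mice 10, 11, 16, 17, 18 and 19, and was highest without mouse 16 (0.131).

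The promoter sequences of both genes are shown because the study asks about CREB in dVenus+ cells, together with that of Scg2, a CREB1 target on the list of the study whose promoter holds the full cAMP response element. Each is the RefSeq sequence (GRCm38) of the 250 bases before an annotated start, 5′ to 3′ on the strand of the gene, with TGACGTCA in capitals where it occurs. That of Lpin1 (minus strand, chr12:16610967-16611216) belongs to a start inside the span of the gene, that of Dusp22 (plus strand) is chr13:30659809-30660058 and that of Scg2 (minus strand) is chr1:79440027-79440276.
Lpin1: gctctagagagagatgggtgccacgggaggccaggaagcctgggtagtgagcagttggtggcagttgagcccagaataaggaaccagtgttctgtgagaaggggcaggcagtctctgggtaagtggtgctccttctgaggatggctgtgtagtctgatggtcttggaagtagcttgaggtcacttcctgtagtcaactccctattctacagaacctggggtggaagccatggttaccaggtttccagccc
Dusp22: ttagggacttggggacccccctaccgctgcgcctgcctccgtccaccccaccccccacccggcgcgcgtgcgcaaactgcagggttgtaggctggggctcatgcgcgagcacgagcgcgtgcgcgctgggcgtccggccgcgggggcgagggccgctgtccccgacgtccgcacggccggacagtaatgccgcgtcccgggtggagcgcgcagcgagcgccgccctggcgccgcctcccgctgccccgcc
Scg2: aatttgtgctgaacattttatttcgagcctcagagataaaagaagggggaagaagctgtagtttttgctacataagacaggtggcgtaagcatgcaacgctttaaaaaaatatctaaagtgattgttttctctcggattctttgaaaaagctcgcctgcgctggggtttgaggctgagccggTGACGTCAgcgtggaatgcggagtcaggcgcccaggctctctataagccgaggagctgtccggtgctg
The motif TGACGTCA was searched on both strands of the promoter windows of RefSeq, which are 300 bases long and add the first 50 bases after the start to the 250 printed. It was not found in the windows of Lpin1 and Dusp22, and in Scg2 it ends 60 bases before the start. No match says only that these letters are not in these windows. Of all such windows of 300 bases, 588 of 32851 hold the motif (1.79%).

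**Figure D1:**
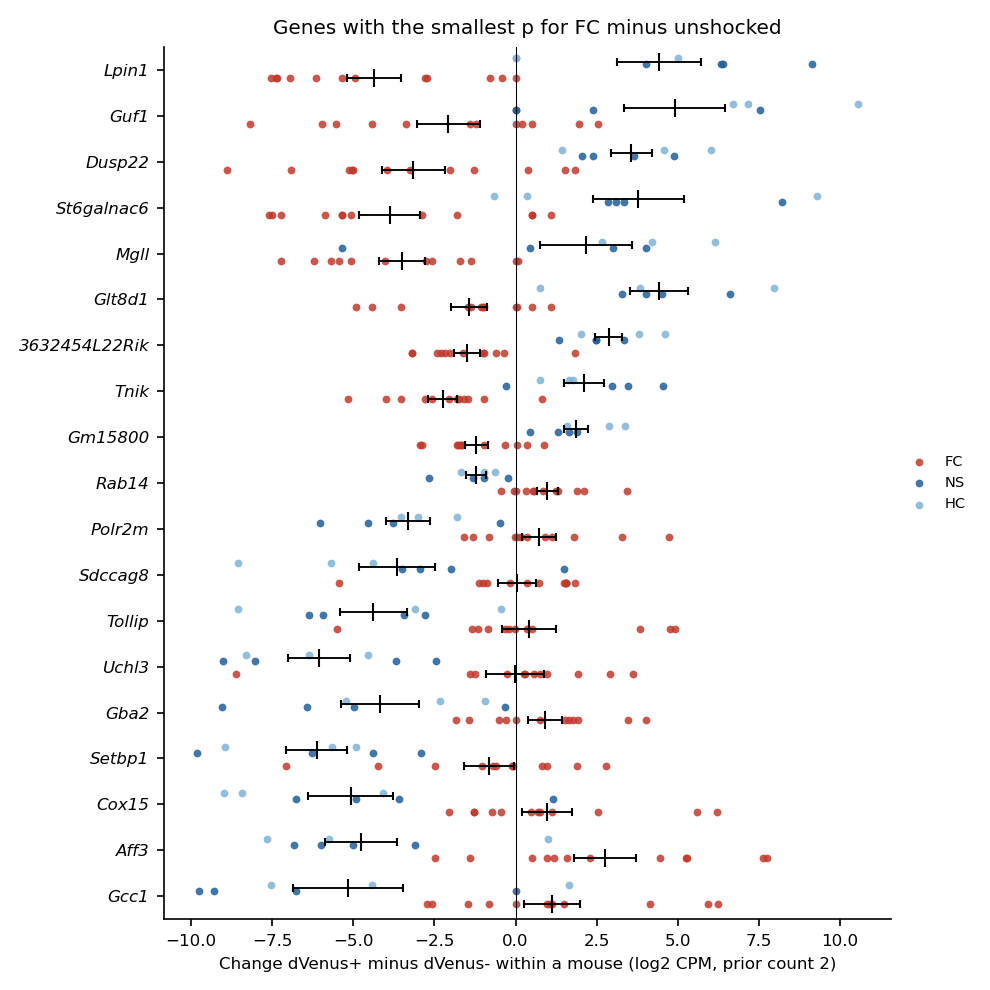
Within-mouse change of 19 of the 20 genes with the smallest p for FC minus unshocked (10 in each direction). Each point is 1 mouse (dVenus+ minus dVenus-, log2 CPM with a prior count of 2) and the bars show the mean ± SEM of the 12 FC mice (lower line of each gene) and of the 7 NS and HC mice (upper line). For Lpin1 the FC points lie at or below 0 and the unshocked points at or above 0.

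A further gene, Tnik, had an adjusted p under 0.10 (0.0863). Tnik encodes a kinase of the postsynaptic density that also acts in Wnt signaling. Its reads ran from 6 to 2839 in dVenus+ and from 545 to 3818 in dVenus- libraries of FC mice, and from 36 to 1133 and 25 to 443 in those of unshocked mice. The change was lower than 0 in 11 of 12 FC mice and higher than 0 in 6 of 7 unshocked mice, and 11 FC mice lay under the lowest unshocked mouse. The difference was -4.26 ± 0.85 (SE, exact permutation p = 5.95e-05, unadjusted).

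The other 7 genes with a lower change in FC mice among the 10 of smallest p did not pass the threshold (adjusted p = 0.113 for each). In all 7 the fitted change was negative in FC mice and positive in unshocked mice, as in the genes above, and the differences ran from -11.60 to -3.01. Mgll, the monoacylglycerol lipase that degrades the endocannabinoid 2-arachidonoylglycerol, had a difference of -5.72 ± 1.31 (SE). Its change in log2 CPM ran from -7.24 to 0.07 in FC mice (median -3.39) and from -5.37 to 6.16 in unshocked mice (median 3.02), and it was lower than 0 in 10 of 12 FC mice and higher than 0 in 6 of 7 unshocked mice. Glt8d1, a glycosyltransferase, had a difference of -5.50 ± 1.17, with a fitted change of -1.13 in FC and 4.38 in unshocked mice. In St6galnac6, a sialyltransferase, the difference was -7.59 ± 1.71, with a change of -4.55 in FC and 3.04 in unshocked mice. Guf1, which encodes a mitochondrial translation factor, had a difference of -11.60 ± 2.46, which rests on dVenus- libraries of unshocked mice with at most 1 read.

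The 10 genes with a higher change in FC mice and the smallest p did not pass the threshold either (adjusted p between 0.113 and 0.180). They had in common that the transcript was lower in dVenus+ cells of unshocked mice, with fitted changes between -8.30 and -1.20, while the fitted change in FC mice lay between -0.11 and 2.77. Aff3, a nuclear protein of the AF4 family, had between 0 and 575 reads in dVenus+ (median 203) and between 0 and 672 in dVenus- libraries (median 27.5) of FC mice. In unshocked mice it had between 0 and 98 in dVenus+ (median 3) and between 21 and 1648 in dVenus- libraries (median 185). The change of Aff3 was above 0 in 10 of 12 FC mice and below 0 in 6 of 7 unshocked mice, a difference of 7.80 ± 1.72 (SE), with 8 FC mice over the highest unshocked mouse. Uchl3, a ubiquitin hydrolase, fell in dVenus+ cells of unshocked mice (log2 fold change -5.19, adjusted p = 0.0123, lower in 7 of 7), with a median of 0 reads in their dVenus+ and 719 in their dVenus- libraries. In FC mice the medians of Uchl3 were 258.5 and 282.5 reads, and the difference was 5.61 ± 1.25. Setbp1, a SET-binding protein, had the same pattern, with a log2 fold change of -5.94 in unshocked mice (adjusted p = 0.00754), -0.11 in FC mice and a difference of 5.82 ± 1.34. Polr2m, a subunit of RNA polymerase II, had a difference of 3.72 ± 0.87, and Rab14, a GTPase of endosomal traffic, one of 2.14 ± 0.58. Rab14 was higher in dVenus+ cells of 10 of 12 FC mice and lower in 7 of 7 unshocked mice, and 11 FC mice were over the highest unshocked mouse. The remaining genes were Gcc1, Gba2, Cox15, Sdccag8 and Tollip, with differences between 4.13 and 9.81.

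In 5 genes the changes of the 12 FC mice and of the 7 unshocked mice did not overlap, which is 0.0412% of the genes tested, and FC mice were lower in all 5 (Cdh11, Spock2, Medag, Il18r1 and A630033H20Rik, named after their values were seen). Cdh11, a cadherin of cell adhesion, changed by -6.30 to 0.14 in FC mice (median -1.23) and by 0.57 to 7.46 in unshocked mice (median 3.01) on the log2 CPM scale. Spock2, a proteoglycan of the extracellular matrix, changed by -2.29 to -0.24 in FC mice and by 0.27 to 2.38 in unshocked mice. Both transcripts were lower in dVenus+ cells of FC mice, in 10 and 12 of 12, and higher in those of 7 of 7 unshocked mice. In Medag, Il18r1 (the receptor for interleukin 18) and A630033H20Rik the unshocked mice carried the difference: their fitted changes were 4.75, 2.25 and 4.01, against 0.29, -0.16 and 0.50 in FC mice. None of the 5 passed the threshold of the fit across all genes (adjusted p between 0.118 and 0.260).

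Over all genes, 413 had a higher change in FC mice at an unadjusted p under 0.05 (3.4% of genes tested) and 1037 a lower one (8.54%). Of these 1450 genes, 1059 (73.0%) changed in opposite directions in the arms, 764 of them with the lower change in FC mice and 295 with the higher one. Choosing genes by their difference favors opposite signs, and over all genes 58.5% had the same sign in both arms. The excess of lower genes moved with a shift of all genes: the median difference was -0.43 log2 units, with a median change of -0.13 in FC and 0.22 in unshocked mice. After centring on that median 728 genes were higher and 656 lower, and with the size factors of DESeq2 in place of TMM 582 were higher and 797 lower (median -0.19), while the same 2 genes were called in both. The shift was largest in sparse genes, with a median difference of -1.20 over 2195 genes that reach 10 reads in 7 to 14 libraries and -0.14 over 3001 genes that reach it in 35 to 38. Gene lists below are therefore given by their median beside that of all genes, and their counts at an unadjusted p under 0.05 stand against the 3.4% (higher) and 8.54% (lower) of all genes. The median of all genes is not matched to how widely the genes of a list were detected. Across 35 settings of the fit the list median stayed above that of all genes for proteasome subunits, chaperones, activity-induced effectors, the respiratory chain and the integrated stress response. It stayed below for potassium channels, for sodium, calcium and HCN channels and for markers of astrocytes, interneurons and immature granule cells. Each other list with at least 4 tested genes was above it in some settings and below it in others.

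**Figure D2:**
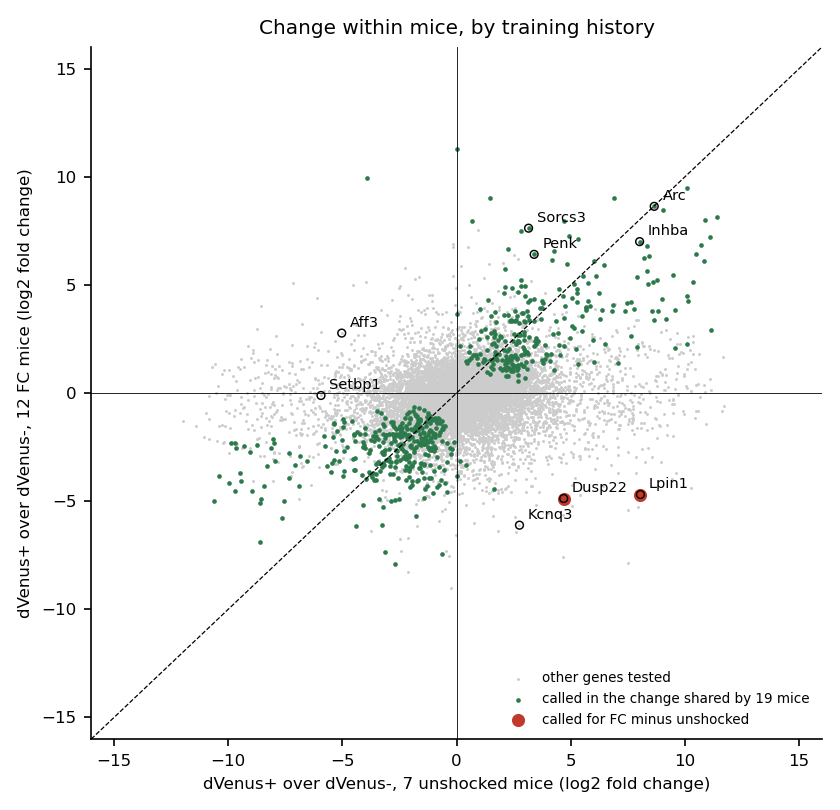
Log2 fold change of dVenus+ over dVenus- cells in the 12 FC mice (vertical axis) against that in the 7 unshocked mice (horizontal axis) for 12147 genes. Genes on the dashed line changed equally in both arms. Green points passed in the average change over 19 mice, and ringed points are labelled. The red points Lpin1 and Dusp22 lie in the quadrant of a positive change in unshocked and a negative change in FC mice.

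Of a list of genes taken from the study, Arc, Atf3, Inhba, Nptx2, Penk, Sorcs1, Sorcs3, Acan, Blnk, Cdkn1a and Sgk1 had a positive and Dusp14 a negative change in both arms, with wide intervals of the difference for many of them. Arc had between 1252 and 14312 reads in dVenus+ libraries of FC mice, and its log2 fold change was 8.63 in FC and 8.65 in unshocked mice. The difference was -0.02 (95% CI -2.32 to 2.28), so that a difference of up to about that size could not have been seen. Inhba, which encodes the activin A subunit, rose by 7.00 in FC (adjusted p = 4.88e-06) and by 8.01 in unshocked mice (adjusted p = 0.00104), a difference of -1.01 (95% CI -4.50 to 2.48). The transcription factor Atf3 had reads of 0 to 2778 in dVenus+ and 0 to 40 in dVenus- libraries of FC mice, and 0 to 758 and 0 to 1 in those of unshocked mice. It was higher in dVenus+ cells of 11 of 12 FC mice and 6 of 7 unshocked mice, and the change in log2 CPM had a median of 8.02 and 6.41. For Nptx2, a neuronal pentraxin that gathers AMPA receptors at synapses, the difference was -0.12 (95% CI -3.83 to 3.58). With 1 mouse left out the difference of Inhba ran from -3.74 to -0.34, that of Nptx2 from -2.28 to 0.66 and that of Arc from -0.97 to 0.64. In Blnk, an adaptor protein of B cell receptor signaling, reads of unshocked mice ran from 0 to 1173 in dVenus+ libraries (median 0) and from 0 to 1 in dVenus- libraries, and it was higher in dVenus+ cells of 12 of 12 FC mice and of 3 of 7 unshocked mice. Reads of Acan, which encodes the perineuronal net proteoglycan aggrecan, and of Cdkn1a, a cell cycle inhibitor, were 0 in every dVenus- library of unshocked mice, so that their change in unshocked mice is only bounded (at least 299.6-fold and 251-fold higher in dVenus+ cells, against a floor of 3 reads over the group). Both genes were higher in dVenus+ cells, in 11 and 9 of 12 FC mice and in 5 and 4 of 7 unshocked mice.

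In 4 genes of that list the difference had an unadjusted p under 0.05, and none of them passed the adjustment over all genes. Sorcs3, a receptor of the VPS10 family that sorts AMPA receptors, changed by 2.70 to 10.94 in FC mice (median 9.05) and by 0.49 to 10.01 in unshocked mice (median 1.91) on the log2 CPM scale. It was higher in dVenus+ cells of all 19 mice, and the median change was larger in FC mice, with a fitted difference of 4.47 ± 1.43 (SE, adjusted p = 0.239). Penk, the precursor of enkephalin, changed by 1.91 to 11.31 in FC mice (median 7.53) and by -5.63 to 10.13 in unshocked mice (median 3.11). Its difference was 3.02 ± 1.42 (adjusted p = 0.404) and the arms overlapped in 10 of 12 FC mice. Sgk1, a kinase induced by corticosteroids and activity, rose in FC mice by 2.66 (adjusted p = 0.0456) and in unshocked mice by 7.62 (adjusted p = 0.00754), a difference of -4.96 ± 1.66 (adjusted p = 0.265). Reads of Sgk1 in dVenus- libraries ran from 0 to 1292 in FC mice and from 0 to 21 in unshocked mice. Kcnq3, a subunit of the M-current potassium channel, had between 0 and 36 reads in dVenus+ and between 0 and 1370 in dVenus- libraries of FC mice (median 120). In unshocked mice it had between 0 and 79 (median 1) and between 0 and 33 (median 0). Kcnq3 was lower in dVenus+ cells of 10 of 12 FC mice and of 1 of 7 unshocked mice, with a difference of -8.86 ± 2.46 (adjusted p = 0.180). In 5 of 7 unshocked mice its dVenus- library held under 4 reads, so that a fall could hardly have been seen there. The exact permutation test of the changes in log2 CPM gave unadjusted p-values of 0.00580 for Sorcs3, 0.0882 for Penk, 0.110 for Sgk1 and 0.00165 for Kcnq3.

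The early transcription factors Fos, Junb, Egr1 and Egr3 and the scaffold gene Homer1 had differences between -2.03 and 0.75, none with an unadjusted p under 0.05. Their intervals were broad: that of Fos, with a median of 0 and 1 reads in dVenus+ and dVenus- libraries of FC mice, ran from -7.75 to 7.77, and that of Homer1 from -1.78 to 3.28. Egr4 had no read in the 14 libraries of unshocked mice and Egr2 was under the count filter. The difference of Creb1 was -0.92 (95% CI -3.81 to 1.97). That of Dusp14, a MAP kinase phosphatase, was 2.02 ± 1.68 (SE). That of Sorcs1 was 4.64 ± 2.96 (SE), and it rested on single mice, with -0.11 without HC mouse 17 and 7.87 without FC mouse 01.

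**Figure D3:**
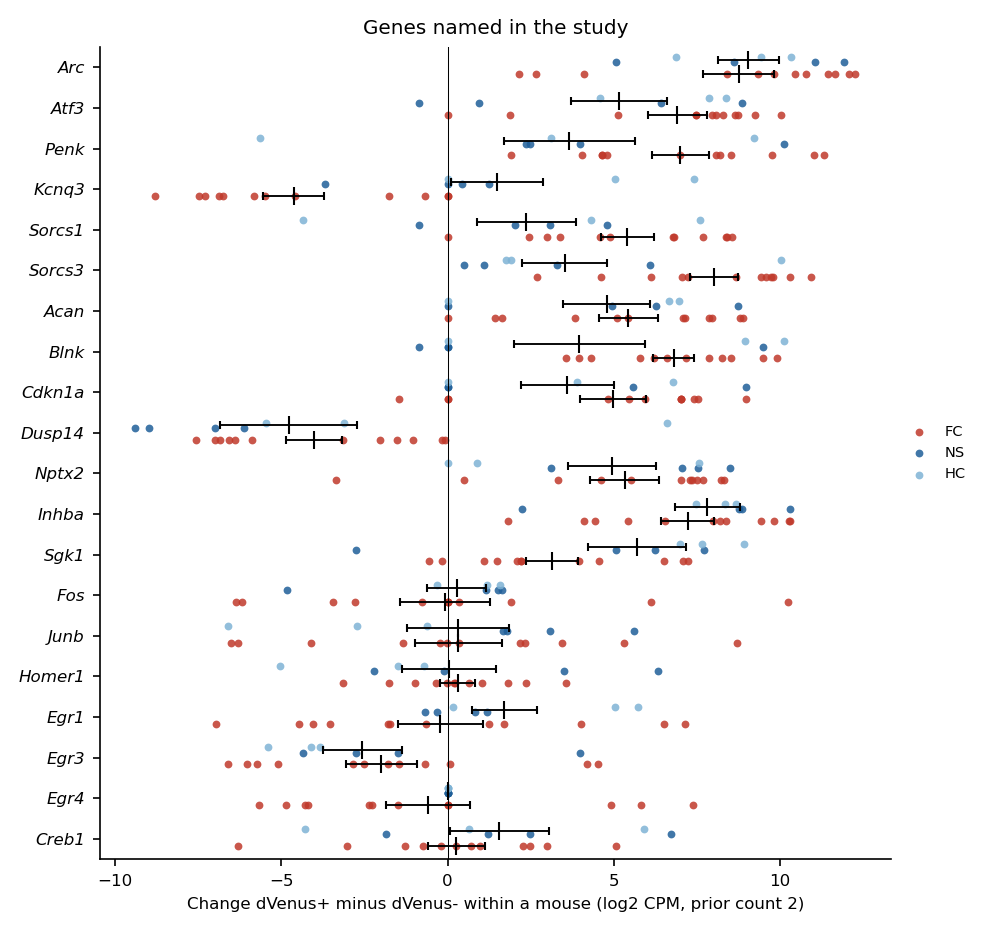
Within-mouse change of the 20 tested genes taken from the study for its RNA sequencing (from its text, and Blnk from its supplementary gene lists). Each point is 1 mouse (dVenus+ minus dVenus-, log2 CPM with a prior count of 2) and bars show the mean ± SEM of FC mice (lower line) and of NS and HC mice (upper line). Arc and Inhba lie to the right of 0 in 19 of 19 mice, and Kcnq3 lies at or left of 0 in 12 of 12 FC mice.

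Genes of protein turnover and folding had higher differences than most genes by their medians. Of 35 proteasome subunits, which degrade ubiquitinated proteins, 10 had a higher change at an unadjusted p under 0.05 and 1 a lower one, and 32 were above the median of all genes. The median difference of the list was 1.07, which is 1.5 above that of all genes, with a median change of 1.28 in FC and -0.03 in unshocked mice. Psmd14, the deubiquitinase of the proteasome lid, changed by -0.54 to 3.50 in FC mice and by -3.53 to 0.42 in unshocked mice, and 8 FC mice were over the highest unshocked mouse. Psmc5, an ATPase of the base, had a difference of 2.07 ± 0.67 (SE), and Psmb2, a subunit of the core, one of 2.19 ± 0.78. Of 36 heat shock proteins and chaperones 7 were higher and 1 lower, with a median of 0.99. Hspa8, a constitutive Hsp70, rose in dVenus+ cells of FC mice (1.15, adjusted p = 0.0203) and was higher in 11 of 12 of them, against -0.14 in unshocked mice, a difference of 1.29 ± 0.45. Hspd1, the mitochondrial chaperonin, and Tcp1, a subunit of the cytosolic chaperonin, had differences of 2.27 and 2.41. None of these genes passed the adjustment over all genes (adjusted p of the 6 named genes between 0.180 and 0.309). Across the settings the median of the list lay above that of all genes by 0.78 to 2.95 for the proteasome and by 0.78 to 2.20 for chaperones.

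In the 76 nuclear-encoded subunits of the respiratory chain, 4 were higher (5.26%, near the 3.4% of all genes) and 0 lower, with a median difference of 0.47. Atp5a1, of the ATP synthase, fell in dVenus+ cells of unshocked mice (log2 fold change -2.03, adjusted p = 0.0324), and its change was lower than 0 in 7 of 7 of them and in 6 of 12 FC mice. Uqcrc1, of complex III, fell in unshocked mice as well (-2.56, adjusted p = 0.0406, lower in 7 of 7), against -0.14 in FC mice. Of 76 cytosolic ribosomal proteins 5 were higher and 1 lower, with a median of 0.44, and Rps3 had the smallest p (difference 2.16 ± 0.65, adjusted p = 0.216). With the number of detected genes as a covariate the median relative to that of all genes fell from 0.90 to 0.057 for the respiratory chain and from 0.87 to -0.077 for ribosomal proteins. Many ribosomal protein genes have processed copies elsewhere in the genome, and reads shared with such a copy were not counted.

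Lists of ion channels and of synaptic genes had medians under that of all genes (-0.43), where 8.54% of genes were lower and 3.4% higher. Of 41 potassium channel genes 9 had a lower change in FC mice (22.0%) and 1 a higher one, with a median difference of -0.94, and the distance to the median of all genes ran from -1.34 to -0.029 across settings, the last with HC mice alone. They include Kcnq3 and Kcnc1, which encodes the fast channel Kv3.1. Kcnc1 had a difference of -2.70 ± 0.86 (SE, adjusted p = 0.247), with 10 of 12 FC mice below 0 and 5 of 7 unshocked mice above it. Of 28 sodium, calcium and HCN channel genes 0 were higher and 5 lower at an unadjusted p under 0.05 by edgeR, with a median of -0.75. Cacna2d2, an auxiliary calcium channel subunit, had the smallest p (-5.59 ± 1.82), with medians of only 2.5 and 4.5 reads in dVenus+ and dVenus- libraries of FC mice. Of 19 genes of GABA receptors, synthesis and transport, 5 were lower (26.3%) and 1 higher, with a median of -0.98, but with HC mice alone the median lay 0.21 above that of all genes. The lower ones include the GABA transporter Slc6a11, which also occurs in astrocytes, and the higher one was Gabra2, a receptor subunit (2.04 ± 0.93, adjusted p = 0.388). Of 32 genes of vesicle release 4 were lower (12.5%, near the share of all genes) and 1 higher, with a median of -0.76, and relative to all genes the median ran from -0.44 to 0.18 across settings, the highest with HC mice alone. Dnm1, the dynamin of synaptic vesicle endocytosis, fell in FC mice (-1.38, adjusted p = 0.0217, lower in 12 of 12) against 0.71 in unshocked mice, a difference of -2.09 ± 0.55 (adjusted p = 0.156), and 11 FC mice were under the lowest unshocked mouse. Snap25, a membrane SNARE of release, was the higher one (0.99 ± 0.38): it fell in unshocked mice (-1.66, adjusted p = 0.00754, lower in 7 of 7). In FC mice its change had the same direction and was smaller (-0.67, edgeR adjusted p = 0.129, lower in 9 of 12). Of 36 genes of glutamate receptors and the postsynaptic density 1 was lower (2.78%, under the share of all genes) and 0 higher, with a median of -0.49, which is 0.064 under that of all genes. Relative to all genes this median ran from -0.41 to 0.24 across settings.

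Astrocyte markers were lower by their median as well. Of 7 astrocyte markers 3 were lower and 0 higher, with a median difference of -2.97, and Aldh1l1, Slc1a3 and Slc1a2 had differences of -9.09, -4.72 and -2.36. That of Aldh1l1 rests on few reads, with a median of 0 in both kinds of library of FC mice. In unshocked mice its median was 37 in dVenus+ and 0 in dVenus- libraries. The summed level of the 7 markers in dVenus+ libraries was between 45.5 and 1586 CPM in FC mice (median 259.2) and between 1054 and 3281 CPM in unshocked mice (median 1721). In dVenus- libraries it was between 164.5 and 2820 CPM (median 507.1) and between 503.2 and 3972 CPM (median 843.3), and no marker of the list was at 0 in all libraries of a group. The part of these transcripts in the results for GABA transport and channels was not tested. Interneuron markers, of which 4 of 6 could be tested, had no difference at an unadjusted p under 0.05 by edgeR and a median of -1.17, and Vip was at 0 in the dVenus- libraries of both arms. Of 14 tested microglia markers 1 was lower (Itgam, -5.66 ± 1.94) and 0 were higher, with a median of -0.52. The list was higher in dVenus+ cells of both arms, with a median change of 3.50 in FC and 3.16 in unshocked mice, and a summed level of 42.4 to 2577 CPM in dVenus+ libraries of FC mice and of 106.1 to 1800 CPM in those of unshocked mice. In dVenus- libraries the sum ran from 1.38 to 1189 CPM in FC mice and from 7.89 to 752.3 CPM in unshocked mice. Of 6 oligodendrocyte markers 1 was lower (Cldn11), with a median of -0.21 and sums of up to 4371 CPM in 1 library. Endothelial markers summed to at most 62.4 CPM and had 1 tested gene, Flt1 (-1.34 ± 2.15), and those of oligodendrocyte precursors summed to at most 83.8 CPM and had none.

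Granule cell markers were present in every library, with sums from 187.4 to 2799 CPM, and both arms had less of them in dVenus+ cells. Of the 9 genes 1 had a higher change in FC mice and 0 a lower one, with a median of -0.05. That gene was Prox1, the transcription factor that specifies granule cells, with a log2 fold change of -0.78 in FC and -2.65 in unshocked mice (difference 1.88 ± 0.90, adjusted p = 0.405). Of 8 tested markers of immature granule cells 1 was lower, Sox4 (-5.29 ± 1.81), with a list median of -0.99. The difference of Sox4 rests on few reads, with under 4 in 11 of 12 dVenus+ and 5 of 12 dVenus- libraries of FC mice. The same held for 5 of 7 dVenus- libraries of unshocked mice.

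Among the genes that neuronal activity induces, 40 effector genes had 5 higher and 2 lower changes, with a median difference of 0.95, which lay 0.98 to 2.19 above that of all genes across 35 settings. The list includes Sorcs3 and Penk among the higher and Sgk1 among the lower, and Dusp4, a MAP kinase phosphatase, whose difference rests on dVenus- libraries of unshocked mice without a read. Of its genes, 21 were called higher in dVenus+ cells in a fit of dVenus alone, which averages the change over 19 mice. Of 22 immediate early transcription factors 1 was higher and 1 lower, with a median of -0.07. Jun was the higher one: it was lower in dVenus+ cells of 7 of 7 unshocked mice (log2 fold change -2.10) and of 6 of 12 FC mice (-0.29), a difference of 1.81 ± 0.74 (adjusted p = 0.335). Of 14 CREB1 targets that the study lists, 2 were higher (Sorcs3 and Penk) and 0 lower, with a median of -0.31. That median has no stable sign: it was 1.38 with DESeq2 and 0.99 with limma, and relative to all genes it ran from -0.50 to 1.90 across settings. The study chose these targets on these samples, so that their direction within FC mice is not independent of them. Of 37 genes from G proteins to CREB, 3 were higher and 4 lower with a median of -0.49, and Pde10a, a cyclic nucleotide phosphodiesterase (-4.00 ± 1.19), and Ep300, the CREB coactivator p300 (-2.73 ± 0.88), had the smallest p (adjusted p = 0.208 and 0.25).

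Of 22 genes of the corticosteroid response, 1 was higher and 3 were lower, with a median of -0.81, and besides Sgk1 the lower ones were Mt2, a metallothionein (-3.40 ± 1.48), and Cdo1, a cysteine dioxygenase (-5.03 ± 2.25, and -10.23 without NS mouse 19). Of 17 neuropeptide and granin genes 1 was higher (Penk) and 1 lower (Tac1), with a median of -0.08. Tac1, the precursor of substance P, had a median of 0 to 6 reads in each kind of library, and a dVenus- library of an FC mouse held 4355. With 1 mouse left out the difference of Tac1 ran from -12.06 to -3.73. Of 35 genes of the integrated stress response 1 was lower (Mthfd2, with at most 1 read in dVenus- libraries of unshocked mice) and 0 higher, with a median of 0.19. Of 8 nuclear long noncoding RNAs 3 were lower (37.5%, against 8.54% of all genes) and 0 higher, with a median of -1.08. With the 4 FC mice of 1 code alone 0 were lower and 1 was higher, with a median of 0.13, which is 0.61 above that of all genes. Kcnq1ot1 rose in dVenus+ cells of unshocked mice by 2.17 (adjusted p = 0.00754, higher in 7 of 7) and had a change of 0.78 in FC mice, a difference of -1.39 ± 0.49 (adjusted p = 0.297), and Miat had a difference of -3.30 ± 1.10. Kcnq1ot1 lies antisense to Kcnq1, and the library kit keeps no strand, so that reads of the pair cannot be told apart where they overlap. This list marks RNA that stays in the nucleus, and its summed level in dVenus- libraries ran from 4522 to 48356 CPM in FC mice and from 5324 to 14321 CPM in unshocked mice. In dVenus+ libraries the sum ran from 19825.8 to 81366.6 CPM in FC mice and from 16118.7 to 75187.5 CPM in unshocked mice.

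Promoters with the full cAMP response element TGACGTCA were examined as a further list. The motif was present in 330 of the 9023 tested genes with a promoter window (3.66%). Of these 330 genes, 10 had a higher change in FC mice (3.03%) and 20 a lower one (6.06%), near the shares of all genes, with a median difference of -0.22. Of the 11 CREB1 targets of the study with a window, 1 holds the motif, Scg2. Scg2, which encodes the granin secretogranin II, rose in FC mice by 2.88 (adjusted p = 0.00108) and had a change of 1.64 in unshocked mice (adjusted p = 0.195), and its difference was 1.24 ± 0.87 (SE, adjusted p = 0.578).

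**Figure D4:**
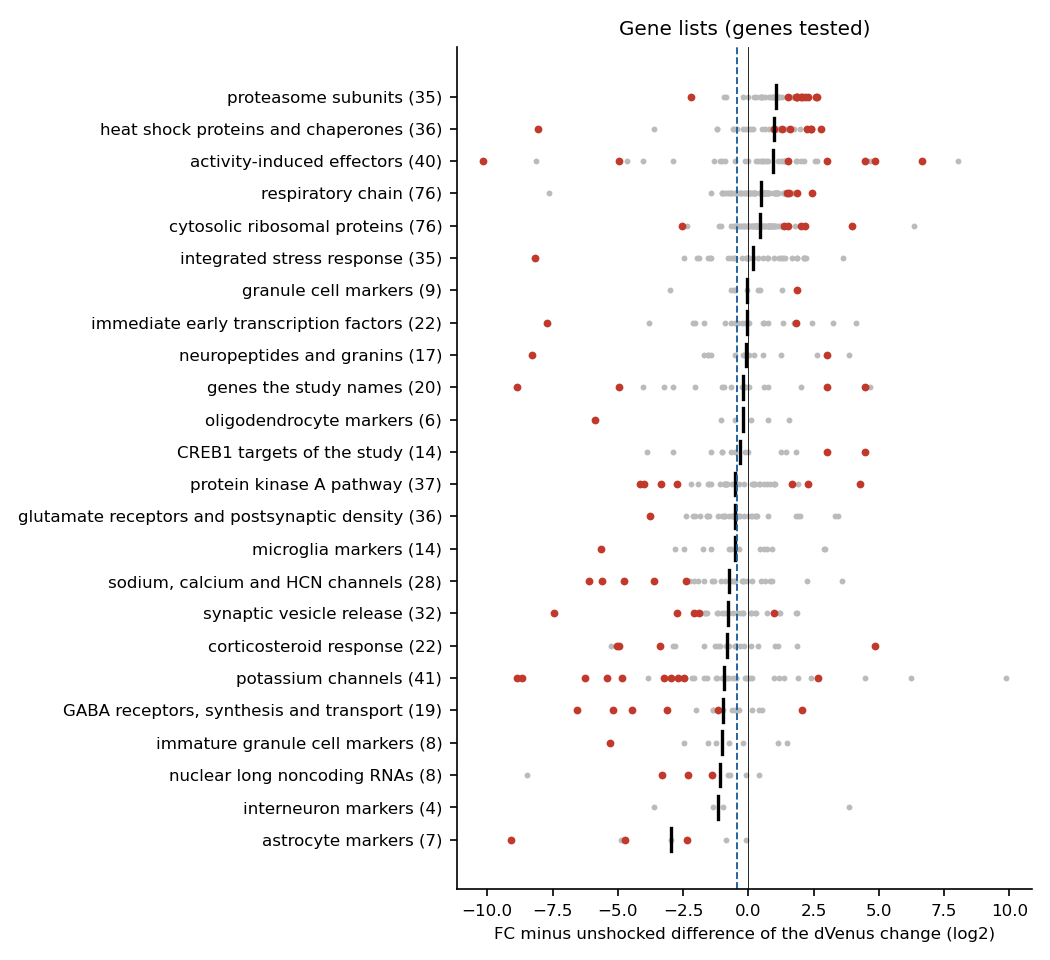
FC minus unshocked difference of the dVenus change (log2) for the tested genes of each list, whose number stands in parentheses. Red points have an unadjusted p under 0.05, black bars are list medians, and the dashed line is the median of all genes (-0.43). The proteasome (median 1.07) and chaperones (0.99) stand at the upper end and astrocyte markers (-2.97) at the lower end.

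More genes were called in the average change over 19 mice than in the difference between the arms, but the difference is estimated less precisely. The SE of the average change and of the difference was 0.74 and 1.14 for Arc, and 0.72 and 1.73 for Inhba. The numbers of calls therefore do not compare the sizes of these effects. A fit of dVenus alone called 262 genes higher (2.16%) and 339 lower (2.79%) in dVenus+ cells over 19 mice at an adjusted p under 0.05 and a log2 fold change over 1. Of these 601 genes 404 changed the same way in at least 15 of 19 mice. The fit of dVenus alone holds no term for shock, and none of the genes it called was called for the difference (edgeR quasi-likelihood test). Opposite changes in the arms average out in such a fit, and it called neither Lpin1 nor Dusp22 (edgeR adjusted p = 0.462 and 0.662). The lack of calls in this set is therefore largely set by how it was chosen, and does not show that its genes change equally in both arms. At an unadjusted p under 0.05, 10 of the 262 had a higher and 14 a lower change in FC mice, with medians of 2.67 in FC and 2.92 in unshocked mice. Of the 339 lower genes 17 had a higher and 16 a lower change, with medians of -2.44 and -2.29. The 10 higher genes of largest fold change include Arc, Inhba, Atf3, Blnk, Acan, Sorcs3 and Sorcs1 and in addition Gpnmb, a transmembrane glycoprotein, Pappa, a protease of IGF-binding proteins, and AI414108. Pappa rose by 7.27 in FC mice (adjusted p = 0.000152, higher in 12 of 12) and had a change of 4.93 in unshocked mice (adjusted p = 0.0646, higher in 7 of 7), a difference of 2.35 (95% CI -1.79 to 6.49). Among the 10 lower genes Shroom2, which binds actin, was lower in dVenus+ cells of 11 of 12 FC and 7 of 7 unshocked mice, and had the smallest p for the difference (3.73 ± 1.46, adjusted p = 0.320). Tiam2, an activator of Rac, Slc29a4, a monoamine transporter, and Sidt1 had fitted changes of -4.96, -5.01 and -4.89 in FC mice. In unshocked mice these were -2.72, -2.88 and -3.40, and the edgeR intervals of the differences all held 0. Sidt1 was lower in dVenus+ cells of 3 and higher in those of 3 of 7 unshocked mice, with a median change of 0. The exact permutation test gave unadjusted p-values of 0.117 for Tiam2, 0.0758 for Slc29a4 and 0.0310 for Sidt1.

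Tested one arm at a time in the same fit, 282 genes were called in FC mice and 122 in unshocked mice. A call in one arm and not in the other is no test of a difference, and the number of mice differs. Of the 282 genes 226 (80.1%) had the same sign in unshocked mice, and of the 122 genes 105 (86.1%) had the same sign in FC mice, where 58.5% of all genes did. The 25 genes called in both make up 8.87% of the calls in FC and 20.5% of those in unshocked mice. Of them 24 changed in the same direction, among them Arc, Inhba, Atf3, Bdnf, Sgk1, Shroom2 and Malat1, and the exception was Lpin1. The NS and HC mice, pooled in the comparisons above, gave no call between them (edgeR quasi-likelihood test, smallest adjusted p = 0.0804), although 959 genes (7.89%) had an unadjusted p under 0.05 and the mice are few. With NS mice alone as the unshocked arm 1 gene was called (Lpin1), and with HC mice alone 0 were called by edgeR, with 1465 at an unadjusted p under 0.05.

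The measures of the libraries were compared between the arms as well, and none of the 3 differed at an adjusted p under 0.05. The number of detected genes in dVenus+ minus dVenus- libraries ran from -3142 to 1789 in FC mice (mean -598.5 ± 1632, SD) and from -1624 to 3422 in unshocked mice (mean 941.7 ± 1467, SD). It was higher in dVenus+ libraries of 7 of 12 FC and 6 of 7 unshocked mice, and the difference of -1540 genes gave p = 0.0555 in the exact permutation test (two-sided, adjusted over 3 library measures 0.0832). With each library thinned to 1352288 reads the difference was -1496 genes (exact permutation p = 0.111). The share of reads outside genes changed from dVenus- to dVenus+ libraries by -1.87 ± 12.3 percentage points (SD) in FC mice and by 12.1 ± 14.8 in unshocked mice, a difference of -14.0 percentage points (exact permutation p = 0.0403, adjusted 0.0832). The log2 ratio of reads on genes differed by -0.17 (exact permutation p = 0.555). With the number of detected genes as a covariate of the fit the median difference over all genes was 0.01, 679 genes were higher and 792 lower at an unadjusted p under 0.05, and 0 were called. The differences of Lpin1 (-13.95, adjusted p = 0.199) and Dusp22 (-9.32, adjusted p = 0.204) were about as large in that fit as without the covariate. The part of these library measures in the differences of single genes was not tested beyond that fit.

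**Figure D5:**
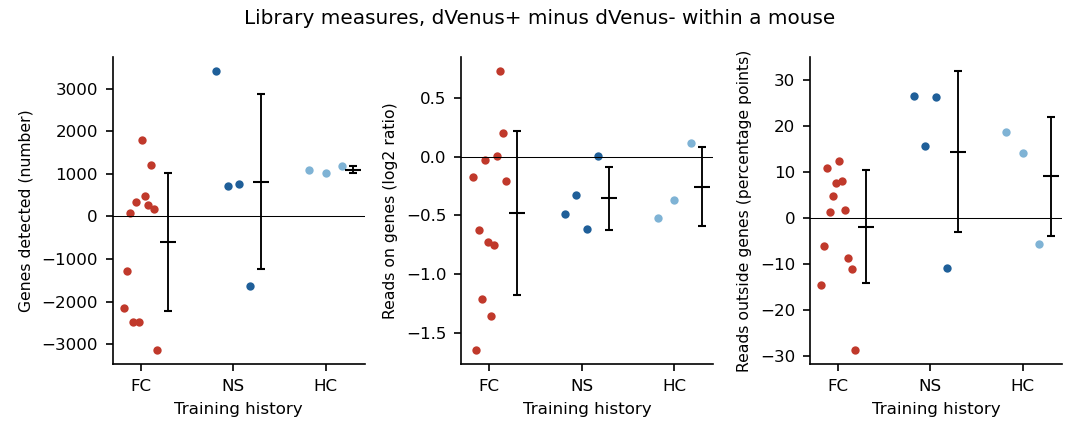
Difference between the dVenus+ and dVenus- library of each mouse in genes detected, reads on genes (log2 ratio) and reads outside genes (percentage points), with the mean ± SD of each training group. Detected genes lie above 0 in 6 of 7 unshocked mice and in 7 of 12 FC mice, where they reach down to -3142.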

How the data were processed

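Nucleated patches of 10 cells were amplified with Smart-seq2 and sequenced as single reads of 50 bases. The authors deposited raw counts per gene for each library, made with TopHat2 2.0.13 on mm10, bcl2fastq and HTSeq 0.6.0 on NCBI transcripts, with uniquely aligned reads only and no normalization. Each file lists 23420 genes and 5 entries that name no gene, which were left out of library sizes and tests. A further deposited table of counts for the whole series was not used here. Libraries were grouped by their titles, and libraries were paired by mouse because both cell pools come from 1 animal. The deviations of paired libraries from their group means had a median correlation of 0.0239 (range -0.0616 to 0.240), with 2 of 19 pairs over 0.1. The median was 0.0432 in FC, -0.0114 in NS and 0.0146 in HC pairs, too low to check the pairing.

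The 12147 genes that reached 10 counts in 7 or more libraries were tested in edgeR 4.0.16 (R 4.3.3) with TMM, glmQLFit and glmQLFTest, two-sided, over all 38 libraries, with terms for mouse, dVenus and dVenus by shock. The last is the difference of FC minus unshocked mice. The average change over 19 mice, also named the common change or effect, came from a fit without the last term. NS minus HC came from a fit with 3 training groups. Within-mouse values are differences of log2 CPM with a prior count of 2, tested by exact permutation of mice between the arms. The NS and HC mice are 7 separate animals, so that p-values measure the spread between mice. Intervals of read ratios cover counting error only, since reads without molecular identifiers are not independent molecules. The fit was tested on simulated data.

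Genes named are those called, the 10 of smallest p in each direction, those taken from the study for the sequencing (its text, and Blnk from its supplementary gene lists), the 10 of largest fold change in each direction among genes of the common effect that changed the same way in at least 15 of 19 mice, and the 3 of smallest p in each of 26 lists. Some genes that this rule names are not reported here. The comparison, the lists and the alternatives were chosen with earlier results of these data known. Positions and promoters are those of RefSeq on GRCm38.p6, the build mm10, and 119 of 119 named genes were matched by symbol. Alternatives were the size factors of DESeq2, other count filters, the Wald test of DESeq2 1.42.0, limma 3.58.1 on within-mouse differences, the older quasi-likelihood method of edgeR, no mouse block, detected genes as a covariate, NS or HC mice alone, the FC mice of each identifier code alone, leaving out mice 06, 07 and 14 (reads of Arc in dVenus- cells) or 03 and 05 (the shallowest dVenus+ libraries), leaving out each mouse, and, chosen after the data were seen, centring on the median of all genes.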

Additional observations from a re-analysis of the deposited data

Results flagged for a closer look

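The difference between the arms was past the threshold for Lpin1 (-12.74 log2 units) and Dusp22 (-9.57), by the test of the interaction itself (edgeR quasi-likelihood test, adjusted p = 0.0174 for both).

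By Dixon's criterion 1 mouse stood apart from the rest of its group in 8 of 86 groups of values examined. The values below are within-mouse changes (dVenus+ minus dVenus-, log2 CPM). Chance gives about 1 in 20 for independent groups of normally spread values. The NS mice are also among the unshocked mice, and the changes of Blnk and Fos rest on few reads, so that the number of flags cannot be set against that rate. Among the 4 NS mice, mouse 18 had a change of 8.23 in St6galnac6 (the others between 2.85 and 3.35) and of 9.49 in Blnk (the others between -0.86 and 0). Among the 7 unshocked mice, HC mouse 17 had a change of 6.59 in Dusp14 (the others between -9.38 and -3.11). NS mouse 19 stood apart in 4 genes: its change was 2.25 in Inhba (the others between 7.46 and 10.3), -2.75 in Sgk1 (the others between 5.08 and 8.90), 3.97 in Egr3 (the others between -5.41 and -1.48) and -4.82 in Fos, both among the unshocked mice and among the NS mice alone, where the others lay between 1.15 and 1.65.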

How the results depend on the processing

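The number of genes called for FC minus unshocked (2) was 5 with a filter of 10 counts in 19 libraries (Medag, Cts8, A630033H20Rik, Tnik and Prr5l, with Lpin1 and Dusp22 not tested), 1532 with the Wald test of DESeq2, 1 with limma and with NS mice alone, and 0 with the older quasi-likelihood method, with detected genes as a covariate, with HC mice alone, with the FC mice of each code alone and without mice 06, 07 and 14. Without the mouse block, which drops the pairing, it was 313. Leaving out 1 mouse gave 0 to 4, with 0 without NS mouse 18 or 19. The cause of these changes was not tested, beyond fewer mice in the subsets. The number at an unadjusted p under 0.05 (1450) was 3043 with DESeq2, 2356 without the block, 560 and 612 with the 2 and 4 FC mice of a code, and 1286 to 1632 with 1 mouse left out. The common change (601 genes) gave 385 without a count filter, 2177 with DESeq2, 306 with limma, 211 with the older method, 1213 without the block, 19, 171 and 98 for the 3 FC codes, 288 without mice 06, 07 and 14, and 447 to 623 with 1 mouse left out. In all these settings that tested them Lpin1 and Dusp22 kept a lower change in FC mice. Reads outside genes differed by -13.9 without mice 03 and 05, -16.3 and -10.9 with NS and HC mice alone, and -22.5, -5.96 and -16.5 by FC code, none with an exact permutation p under 0.05, and by -17.8 to -11.6 with 1 mouse left out. Reads on genes turned to 0.0217 without mice 03 and 05 and to 0.0841 with the 6 FC mice of a code (-0.28 to -0.06 with 1 mouse left out). Detected genes ranged from -1968 to -1127 with 1 mouse left out. Values of single named genes under alternatives were judged by adjusted p in the fits and by unadjusted p in the permutation tests. Of these, 4127 kept direction and side of the threshold, or changed sign by at most 1 SE in a gene without an unadjusted p under 0.05. A further 105 passed the threshold in addition and 67 no longer passed. In 44 the sign changed by more than 1 SE in a gene without such a p, and 3 reversed in genes with it. Nr4a1 reversed to 1.25 with DESeq2 and to 2.66 with HC mice alone, and Cldn11 to 0.98 with the 4 FC mice of a code.

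The median SE of 1.65 log2 units over all genes leaves differences of a few units open for a typical gene, and a gene without a read in all libraries of one side has only a lower bound of its fold change. Pools of 10 cells add variation that the design cannot separate from variation between mice. All 7 unshocked mice carry 1 code, so that no setting holds FC and unshocked mice within a code.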
